A study of Mus musculus with 12 samples.

Results

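The genes described here encode proteins that copy DNA and proteins that divide the cell. They were taken by name, as 24 genes of DNA replication and 23 genes of mitosis, 47 of the 24506 named genes on the array. All 47 were found. RNA was measured on 12 one-colour Agilent arrays of mouse kidney tissue. Of these arrays, 3 held kidney organoids after 7 days of culture and 3 held organoids taken straight after they were assembled, here called uncultured. Both organoid groups were reconstructed from 2 tissues derived from mouse embryonic stem cells (B6 and 129SV background), namely ureteric bud and nephron progenitors, joined with stromal progenitors from E11.5 kidneys of wild-type ICR mice. One further array held E11.5 ICR kidney after the same 7 days of culture. Fresh whole ICR kidneys without ureter, all wild type, gave 1 array for each of 5 stages, of which E11.5 came first, then E13.5, E15.5 and E17.5, and P0 (the day of birth) last. Cultured tissue of both kinds was kept on a transwell with Matrigel in medium with serum. The labels do not say whether organoid replicates were separate cultures, so the p-values measure only the spread between these samples, which may be technical.

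A level is the log2 of the array signal minus the 75th percentile of that array. Levels of different genes are not comparable, since each probe binds with its own strength. Of 55681 probes, 50.6% to 54.2% were well above background in the uncultured organoids, while every other array had 56.1% to 63.2%. Saturated spots numbered 0. The cultured organoids and uncultured replicate 3 were on 1 slide, and uncultured replicates 1 and 2 and all kidneys on another. Of the 47 genes, 44 were well above background on every array. The exceptions were Ccne2 (on 7 arrays: the 5 fresh kidneys and uncultured replicates 1 and 2), Aurkb (on 11, dim on uncultured replicate 3) and Cenpf (on 11, dim on uncultured replicate 1). Markers of nephron progenitors were above background on all 12 arrays for 10 of 10 genes, ureteric bud markers for 9 of 9 and stromal markers for 8 of 8.

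A dividing cell first licenses its origins of replication by loading the MCM helicase, then fires them and copies the genome at forks built around PCNA and the polymerases, and only later condenses, aligns and separates its chromosomes. The RNAs follow this order. Replication genes are largely switched on by E2F factors around the entry into S phase, whereas most mitosis genes rise later through promoter elements named CHR and CCAAT, which bind the DREAM and MMB complexes and NF-Y. In the growing kidney, division is known to be frequent in nephron progenitors, ureteric tips and stroma and to decline as nephrons mature.

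RefSeq promoter windows (build GRCm38.p6, 250 bases before to 50 after the start) were listed for 37 of the 47 genes, 19 of replication and 18 of mitosis. An E2F octamer (TTTCCCGC, TTTGGCGC, TTTCGCGC or TTTGCCGC, on either strand) was found for 8 of 19 replication genes (42.1%) and 1 of 18 mitosis genes (5.56%), against 2.6% of 27025 genes with a window. A CHR (TTTGAA or TTCGAA, on either strand) was found for 13 of 18 mitosis genes (72.2%) and 4 of 19 replication genes (21.1%), against 21.7% of all. The CCAAT box was present for 15 of 18 mitosis genes (83.3%), 12 of 19 replication genes (63.2%) and 41.1% of all, and a CHR together with CCAAT for 13 of 18, 3 of 19 and 9.65%. A gene with several windows counts if any of them holds the letters, and matches may overlap each other. The lists of other replication and other mitosis genes gave like shares, with the E2F octamer for 10 of 32 other replication genes (31.2%) and the CHR for 28 of 35 other mitosis genes (80.0%). A match is a run of letters, not a shown binding site.

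The promoters of 4 genes show both layouts, each as the 250 bases before the start, 5′ to 3′ on the strand of the gene. Mcm6, the replication gene with the most E2F matches (3, of which 2 overlap in the first capital run), lies at chr1:128359706-128359955 on the minus strand, and capitals mark E2F octamers. In the mitosis promoters capitals mark CHR and CCAAT matches on either strand. Top2a (chr11:99024190-99024439, minus strand) held the most, with 4 CHR and 6 CCAAT. Cdk1 (chr10:69352913-69353162, minus strand) held 2 CHR and 3 CCAAT, and also 1 E2F octamer, left in lower case. Ccnb1 (chr13:100786487-100786736, minus strand) held 2 CCAAT and no CHR. The windows of E2f1 and Mcm2 held no E2F octamer and are not shown.
Mcm6: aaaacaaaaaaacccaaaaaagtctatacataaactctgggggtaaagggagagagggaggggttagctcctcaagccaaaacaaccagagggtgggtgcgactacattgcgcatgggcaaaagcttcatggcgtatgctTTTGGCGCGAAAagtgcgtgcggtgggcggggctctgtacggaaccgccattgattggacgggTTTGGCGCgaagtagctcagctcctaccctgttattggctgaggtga
Top2a: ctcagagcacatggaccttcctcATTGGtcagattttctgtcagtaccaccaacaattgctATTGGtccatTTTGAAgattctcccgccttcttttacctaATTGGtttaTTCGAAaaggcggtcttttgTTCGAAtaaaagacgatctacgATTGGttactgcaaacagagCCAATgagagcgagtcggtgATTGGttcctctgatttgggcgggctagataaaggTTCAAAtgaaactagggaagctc
Cdk1: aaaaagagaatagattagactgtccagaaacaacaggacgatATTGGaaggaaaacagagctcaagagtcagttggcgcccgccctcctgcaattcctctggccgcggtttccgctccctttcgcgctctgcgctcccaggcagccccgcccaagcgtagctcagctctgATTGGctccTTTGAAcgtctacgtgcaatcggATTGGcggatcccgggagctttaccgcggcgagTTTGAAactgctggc
Ccnb1: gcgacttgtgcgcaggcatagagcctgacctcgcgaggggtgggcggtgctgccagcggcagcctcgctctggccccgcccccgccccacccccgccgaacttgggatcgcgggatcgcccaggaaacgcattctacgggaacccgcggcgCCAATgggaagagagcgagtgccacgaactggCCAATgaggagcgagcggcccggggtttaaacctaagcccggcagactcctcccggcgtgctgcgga

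**Figure D1:**
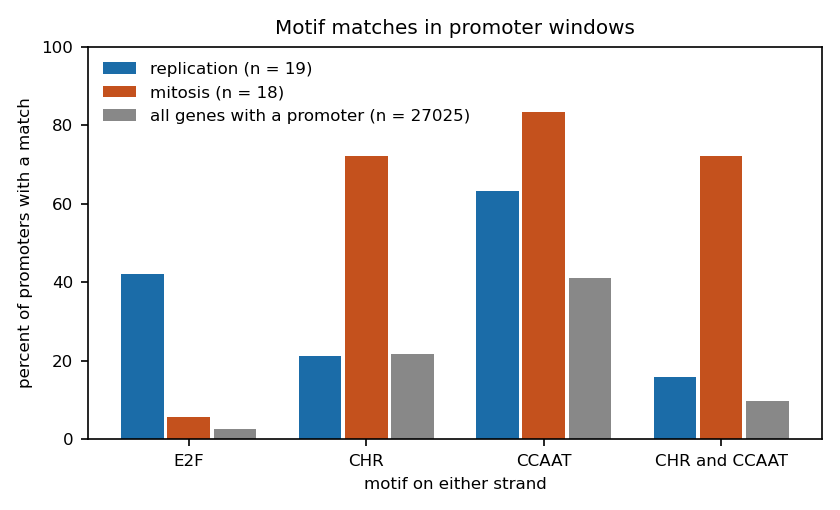
Percent of promoter windows with an E2F octamer, a CHR, a CCAAT box, or both CHR and CCAAT (vertical axis) for 19 replication genes, 18 mitosis genes and 27025 genes with a window (bars). The E2F bar is high for replication genes at 42.1% and the CHR bar for mitosis genes at 72.2%.

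Centred on each gene's mean over the 12 arrays, the median level of the replication genes was -0.42, -0.36 and -0.23 on the cultured organoid arrays and -0.07, -0.16 and -0.05 on the uncultured ones. The median of the mitosis genes was -0.12, -0.13 and 0.01 on the cultured organoid arrays and -0.52, -0.70 and -0.65 on the uncultured ones. The class medians of cultured and uncultured arrays did not overlap, with cultured below for replication genes and above for mitosis genes. The median difference between cultured and uncultured organoids was -0.29 for replication genes and also below 0 for all genes tested, at -0.17. Cultured E11.5 kidney had -0.26 for replication and -0.21 for mitosis genes, against 0.77 and 0.68 in fresh E11.5 kidney. The fresh stages from E11.5 to P0 had 0.77, 1.02, 0.43, -0.15 and -0.44 for replication genes and 0.68, 1.14, 0.72, 0.15 and -0.35 for mitosis genes. Both classes were highest at E13.5 and lowest at P0.

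**Figure D2:**
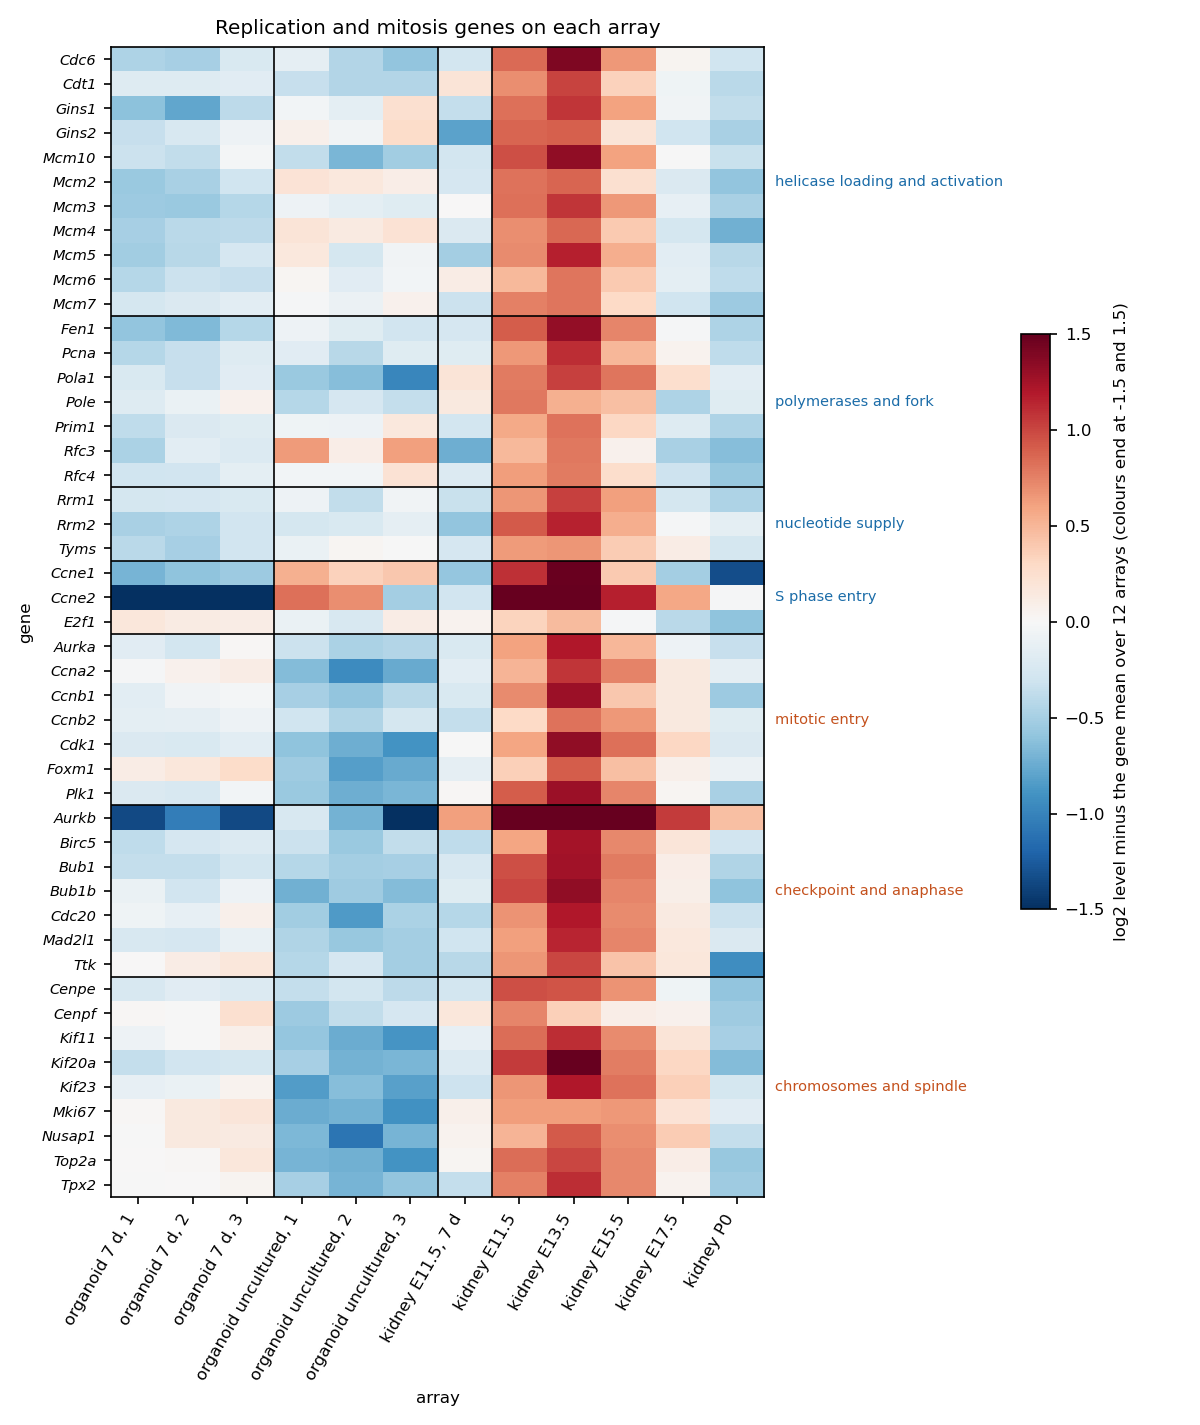
Log2 level of each of the 47 genes (rows, grouped by role, blue names for replication and orange for mitosis) on each of the 12 arrays (columns), minus the gene's mean over the arrays. The kidneys at E11.5 and E13.5 are above the mean for nearly all genes, and the uncultured organoids are low mainly in the mitosis rows.

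The first comparison asked what 7 days of culture did to organoids. Mitosis genes rose: 19 of 23 were higher in cultured organoids at an adjusted p under 0.05 and 0 were lower (limma; 0 lower also at an unadjusted p under 0.05), where 28.4% of 16643 genes tested rose. Their median log2 difference was 0.49, against -0.17 for all genes. Replication genes did not follow. Of 23 tested, 3 rose, 11 fell and 9 were not called, with a median of -0.29, which was -0.11 with normexp background correction, there 0.05 above the median of all genes. The share that fell, 47.8%, was close to the 41.5% of all genes that fell. Tested against a 1.5-fold threshold with limma, 2 of 23 mitosis genes rose and 0 fell, and 0 replication genes rose and 1 fell, where 16.3% of all genes rose and 10.5% fell. In bulk samples, fewer cells of a type and less RNA per cell cannot be told apart.

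Among the genes that run mitotic entry, all 7 rose. Foxm1, the transcription factor of the late cell cycle genes, had levels of 0.84, 0.90 and 1.01 in cultured organoids, against 0.20, -0.10 and -0.02 in uncultured ones. The groups did not overlap, and the difference of means was 0.89 ± 0.10 (SE; limma adjusted p = 0.000377), a 1.85-fold rise. Ccnb1, the cyclin that activates Cdk1 at entry into mitosis, had 3.70, 3.81 and 3.83 in cultured organoids, against 3.36, 3.26 and 3.44 in uncultured ones. It rose by 0.42 ± 0.08 (limma adjusted p = 0.00393). Cdk1, the mitotic kinase itself, had 2.64, 2.63 and 2.70 in cultured organoids, against 2.26, 2.12 and 1.96 in uncultured ones, a rise of 0.55 ± 0.10 (limma adjusted p = 0.00238) on its brightest probe. Its other probes differed by -0.36 and -0.04, so its direction depends on the probe. The smallest rise among the 7 was that of Ccnb2, at 0.22.

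Of 9 genes of chromosome structure and the spindle, 8 rose, with a median difference of 0.71. Mki67, which coats mitotic chromosomes and is the common marker of dividing cells, had 4.56, 4.69 and 4.73 in cultured organoids, against 3.79, 3.84 and 3.64 in uncultured ones. Every cultured array was above every uncultured one, and the difference was 0.90 ± 0.09 (limma adjusted p = 0.000194), or 1.87-fold. Top2a, the topoisomerase that untangles sister chromosomes, had 2.72, 2.72 and 2.88 in cultured organoids, against 2.01, 1.98 and 1.81 in uncultured ones, a rise of 0.84 ± 0.09 (limma adjusted p = 0.000290). Nusap1, a microtubule-binding spindle protein, had 2.31, 2.47 and 2.46 in cultured organoids, against 1.65, 1.23 and 1.63 in uncultured ones. Its rise of 0.91 ± 0.13 had the largest size in the class (limma adjusted p = 0.000981). Cenpe, a kinetochore motor, was the 1 gene of the 9 not called, at 0.13.

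Of 7 genes of the spindle checkpoint and of anaphase, 4 rose and 3 were not called, with a median of 0.31. Cdc20, which activates the anaphase-promoting complex, was higher by 0.58, and the checkpoint kinases Ttk and Bub1b by 0.49 and 0.48. Bub1 and Birc5 were not called, at 0.15 and 0.14. Aurkb, the kinase of the chromosomal passenger complex, had -4.16, -3.84 and -4.16 in cultured organoids, against -3.04, -3.50 and -5.46 in uncultured ones, the last of them not well above background. Its difference of -0.05 was the smallest in the class, with a 95% interval from -1.48 to 1.37, so a change of either sign was not detectable. Mad2l1 (0.31 on the brightest probe), Tpx2 (0.61) and Birc5 had other probes that differed by -0.09 and -0.14, by -0.14, and by -0.19 and -0.05.

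Genes that load and activate the replicative helicase gave 6 that fell, 1 that rose and 4 not called, with a median of -0.32. Mcm4, a helicase subunit, had 4.43, 4.52 and 4.54 in cultured organoids, against 5.13, 5.06 and 5.14 in uncultured ones, and fell by 0.61 (SE 0.07; limma adjusted p = 0.000443). Mcm2, another subunit, had 2.84, 2.92 and 3.1 in cultured organoids, against 3.61, 3.56 and 3.49 in uncultured ones, and fell by 0.60 (SE 0.09; limma adjusted p = 0.00140). Neither gene overlapped between the groups. Gins1, a part of the active helicase, fell by 0.61 (SE 0.14; limma adjusted p = 0.00790). Cdt1, a loading factor, rose by 0.22, and Cdc6, its partner, had a difference of -0.01 with a 95% interval from -0.35 to 0.34. The other Cdc6 probe, above background on all 12 arrays, differed by -0.37.

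Polymerase and fork genes went both ways, with 2 up, 3 down and 2 not called. Pcna, the sliding clamp, had 5.13, 5.21 and 5.36 in cultured organoids, against 5.39, 5.14 and 5.37 in uncultured ones, and the groups overlapped (difference -0.07, 95% interval -0.32 to 0.19). Rfc3, a subunit of the clamp loader, fell by 0.73 (SE 0.17; limma adjusted p = 0.00870), whereas the polymerase subunits Pola1 and Pole rose by 0.47 and 0.27. Of the nucleotide supply genes, Tyms fell by 0.37 and Rrm1 and Rrm2 were not called.

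The regulators of S phase entry gave the largest fall of all members tested. Ccne1, the cyclin that drives cells into S phase, had 2.88, 2.98 and 3.04 in cultured organoids, against 4.12, 3.93 and 3.99 in uncultured ones. It fell by 1.05 (SE 0.09; limma adjusted p = 8.6e-05), with every cultured array below every uncultured one. Ccne2, its relative, was not well above background in any cultured organoid and was above it in 2 of 3 uncultured ones. It was therefore not tested. Its levels were -6.47, -6.23 and -7.32 in cultured organoids, against -3.89, -4.01 and -5.22 in uncultured ones. The last was dim too, so no lower bound of the difference is given. E2f1 had 1.8, 1.75 and 1.74 in cultured organoids, against 1.53, 1.38 and 1.74 in uncultured ones, and was not called (0.21, 95% interval -0.04 to 0.47).

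**Figure D3:**
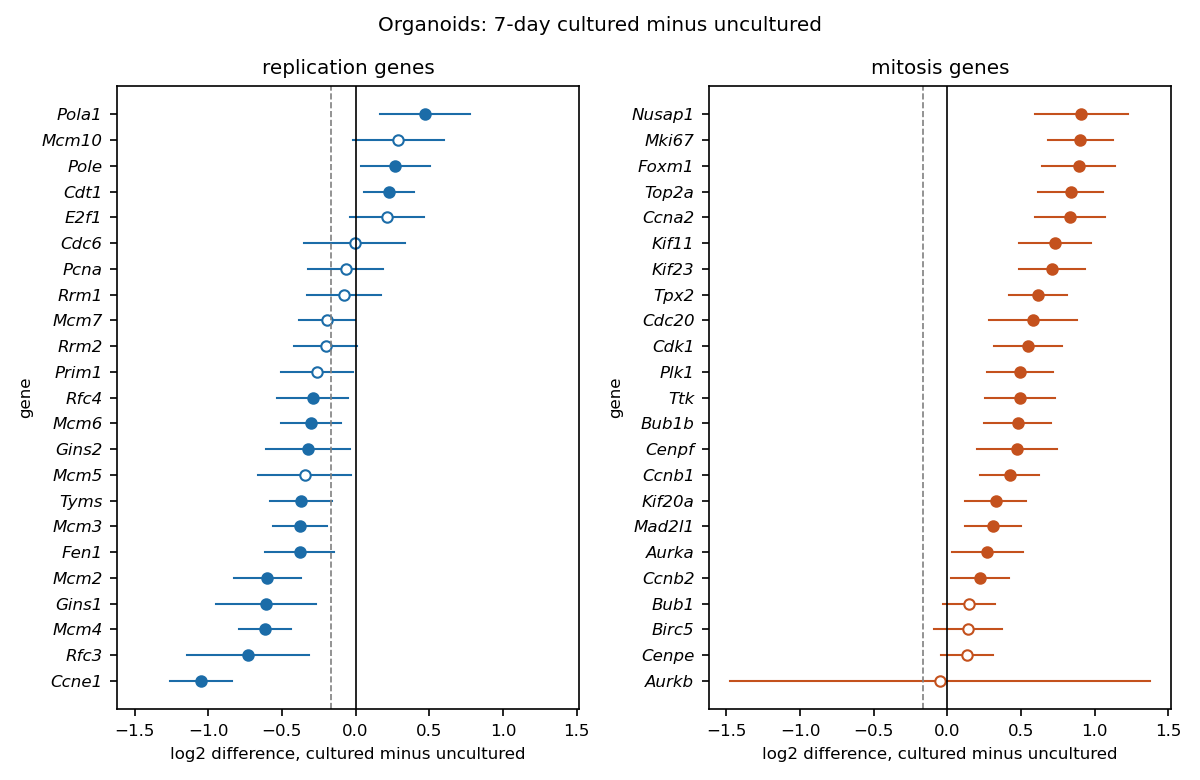
Log2 difference, cultured minus uncultured organoids (horizontal axis), for 23 replication genes and 23 mitosis genes (rows), with 95% intervals as bars. Filled points passed an adjusted p of 0.05, and the dashed line is the median of all genes tested, -0.17; 22 of 23 mitosis points lie right of 0 and 18 of 23 replication points left of it.

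The groups of 3 arrays did not overlap, with cultured above uncultured, for 21 mitosis and 4 replication genes, and with cultured below for 0 and 14, where 30.4% and 45.6% of all genes tested did so. With the slide as a block, 15 mitosis genes rose and 0 fell, and 1 replication gene rose and 10 fell. Of all genes tested in that fit, 24.62% rose and 36.56% fell. Within the slide that held all cultured organoids and uncultured replicate 3, the medians were 0.52 for mitosis and -0.32 for replication genes. With the mean of each gene's probes in place of the brightest, 14 mitosis genes rose and 11 replication genes fell. There 27.38% of all genes rose and 40.38% fell, so the replication falls were again near the share of all genes. By promoter letters, as a description, replication genes with an E2F octamer had a median difference of -0.25 (8 genes) and those without -0.26 (11 genes), and mitosis genes with a CHR had 0.49 (13 genes) and those without 0.31 (5 genes).

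Other genes of the same processes were counted from separate lists. Of 41 other mitosis genes, 32 rose and 2 fell, with a median of 0.51. They were led by Prc1 (1.30 ± 0.07) and Anln (1.16 ± 0.07), both needed for cytokinesis, and by Pbk (1.08) and Ect2 (0.99). Of 38 other replication genes, 6 rose and 13 fell (34.2%), with a median of -0.19. Of all genes tested 28.4% rose and 41.5% fell, with a median of -0.17, so falls in this list were not more frequent. Timeless, a fork protector, fell by 0.86, Cdc7 by 0.65 and Rfc2 by 0.63, while Tk1, a thymidine kinase, rose by 0.81 ± 0.11.

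Genes that open and close the way into the cycle gave the following. Of 16 genes of cell cycle entry, 7 rose and 3 fell. Ccnd1 (cyclin D1) rose by 2.92 ± 0.14 (limma adjusted p = 1.09e-05), from levels of 4.78, 4.78 and 4.86 in cultured organoids, against 2.14, 1.59 and 1.92 in uncultured ones. Mycn rose by 1.39 and Myc by 1.15, both growth-promoting transcription factors. Of 17 genes that brake the cycle, 9 rose and 3 fell. Cdkn1a, the inhibitor p21, rose by 3.53 ± 0.21 (limma adjusted p = 2.33e-05) and Cdkn2c by 2.53 ± 0.13. The inhibitor Cdkn2a was not well above background in any uncultured organoid and was at least 5.10-fold higher in cultured ones. Cdkn2b rose by 5.44 ± 0.75 (limma adjusted p = 0.000785), though it was above background on 1 of 3 uncultured arrays. Cdkn1c, the inhibitor p57, went the other way and fell by 2.45 (SE 0.11; limma adjusted p = 7.75e-06).

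Markers of other cell types moved in the same comparison. Sums of linear levels, here and below, are led by the brightest probes of a list, so they are read beside the counts. The summed linear level of 9 nephron epithelium markers was 101 to 111 in cultured organoids, against 7.28 to 11.3 in uncultured ones, and 8 of 8 tested rose. That of 7 neuron markers was 3.33 to 4.52 in cultured organoids, against 22.0 to 24.8 in uncultured ones, and 6 of 6 tested fell. Of 10 erythroid markers, 4 of 7 tested fell and 1 rose, with sums of 3.30 to 3.51 in cultured organoids, against 17.3 to 25.5 in uncultured ones, and Hbb-y, Hbb-bh1, Hba-x, Alas2 and Gata1 were among those not well above background in any cultured organoid. Of 8 stroma markers 4 rose and 4 fell, with sums of 444 to 512 in cultured organoids, against 236 to 248 in uncultured ones. Endothelial (7 of 8 rose, 1 fell), ureteric (8 of 9 rose, 1 fell), nephron progenitor (4 of 10 rose, 3 fell), skeletal muscle (1 of 5 tested rose, 3 fell), macrophage (1 of 4 tested rose, 1 fell) and pluripotency markers (2 of 4 tested rose, 2 fell) moved as well. Their part in the result was not tested.

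The second comparison followed fresh kidneys from E11.5 to P0. On the probe used, all 47 genes were lower at P0 than at E11.5. The medians were -1.14 for replication and -1.18 for mitosis genes (all genes -0.23). Another Pole probe, above background on all 12 arrays, differed by 0.06, where the probe used differed by -0.97. By 2-fold or more, 19 replication and 13 mitosis genes were lower and 0 were higher, where 15.1% of genes were lower and 17.46% higher by that much. Furthest below were Ccne1 (-2.43), Kif20a (-1.70) and Bub1b (-1.59), and least Foxm1 (-0.44), Ccnb2 (-0.48) and Ccna2 (-0.64). The course was not a straight line. E13.5 held the highest of the 5 levels for 23 of 24 replication and 20 of 23 mitosis genes, against 30.2% of all genes, and P0 the lowest for 23 and 23, against 39.5%. Single arrays give no test of a step.

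From E11.5 to E13.5 the median difference was 0.25 for replication and 0.41 for mitosis genes (all genes 0.07), and no member moved by 2-fold, where 6.16% of genes were higher and 7.01% lower by that much. Cdk1 (0.74), Birc5 (0.66) and Aurka (0.60) were most above their E11.5 level at E13.5. Below it were Cenpf (-0.37), Pole (-0.25), Cenpe (-0.02) and Mki67 (-0.01). The 3 later steps were all down. From E13.5 to E15.5 the medians were -0.56 and -0.45 (all genes -0.11), from E15.5 to E17.5 -0.58 and -0.53 (all genes -0.07), and from E17.5 to P0 -0.33 and -0.56 (all genes -0.04). Lower by 2-fold was 1 replication gene in the first of these steps (1.73% of all genes), no member in the second (2.34%) and 1 mitosis gene in the third (3.38%). No member was higher by 2-fold, where 9.1%, 5.54% and 4.39% of all genes were. Those genes were Ccne1 (-1.10) from E13.5 to E15.5 and Ttk (-1.10) from E17.5 to P0. Next to them, Ccnb1 (-0.88) and Cdc6 (-0.75) were most below in the first step, Pole (-0.92), Ccne1 (-0.90) and Rrm1 (-0.87) in the second, and Kif20a (-0.96) and Ccne1 (-0.81) in the third. At the other end stood Mki67 (0.02), Pole (-0.08) and Ccnb2 (-0.16) in the first step, Cenpf (-0.03), Ccnb1 (-0.26) and Ttk (-0.26) in the second, and Pole (0.28), Rrm2 (-0.13) and Rfc3 (-0.16) in the third.

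As a slope per stage step over the 5 arrays, 17 of 24 replication and 8 of 23 mitosis genes fell and 0 rose (limma; 0 rose also at an unadjusted p under 0.05), where 14.7% of 19052 genes tested fell and 12.5% rose. The median slopes were -0.35 and -0.32, against -0.05 for all genes. Ccne1 had levels of 4.68, 5.07, 3.97, 3.07 and 2.25 from E11.5 to P0, the steepest slope of the class at -0.69 ± 0.12 (limma adjusted p = 0.0216). Mcm2 had 4.21, 4.27, 3.64, 3.19 and 2.81, with a slope of -0.39 ± 0.06 (limma adjusted p = 0.0176). E2f1 had 1.96, 2.10, 1.61, 1.22 and 1.02, with a slope of -0.28 ± 0.06 (limma adjusted p = 0.0334). Each was highest at E13.5 and lower at every later stage. Ccne2 (-0.44), Fen1, the flap nuclease of the lagging strand (-0.41), and Mcm10 (-0.40) completed the steepest replication genes, and Tyms (-0.23), an enzyme of thymidylate synthesis, had the shallowest slope, which still passed.

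Of the mitosis genes, Top2a had 3.55, 3.71, 3.44, 2.81 and 2.14 from E11.5 to P0 and fell by 0.37 per step (SE 0.09; limma adjusted p = 0.0404). Kif20a, a kinesin of cytokinesis (-0.46), Bub1b (-0.44), Cenpe (-0.41) and Plk1, a kinase of mitotic entry (-0.40), had the steepest slopes of those called. Ccnb1 had 4.56, 5.14, 4.26, 4.0 and 3.31, and Cdk1 had 3.44, 4.19, 3.68, 3.16 and 2.64. Both peaked at E13.5, and neither slope was called (-0.36 ± 0.11, limma adjusted p = 0.0669, and -0.26 ± 0.12, limma adjusted p = 0.165). Mki67 had 5.18, 5.17, 5.19, 4.75 and 4.37, level until E15.5, with a slope of -0.20 that was not called. Pcna had 6.21, 6.67, 6.06, 5.62 and 5.18, with a slope of -0.31, and Foxm1 had 1.09, 1.64, 1.19, 0.81 and 0.64, with a slope of -0.17. Neither passed. The shallowest mitosis slope was that of Ccnb2 (-0.16).

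**Figure D4:**
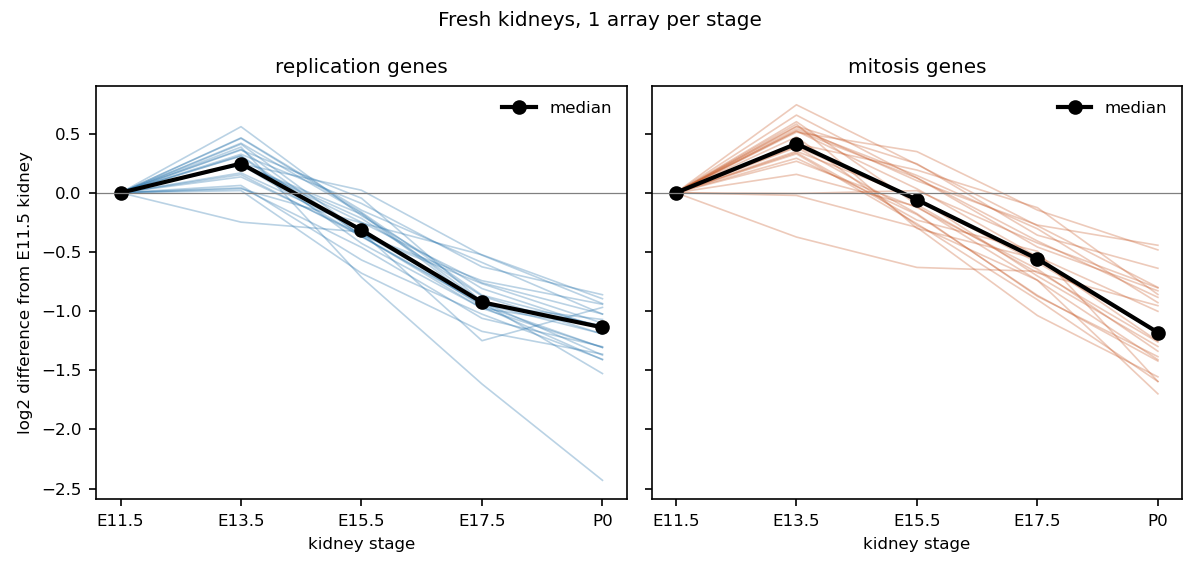
Log2 difference from the E11.5 kidney (vertical axis) at each fresh stage (horizontal axis, 1 array each) for 24 replication and 23 mitosis genes (thin lines) with their median (black). The medians are 0.25 and 0.41 at E13.5 and end at -1.14 and -1.18 at P0.

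The slope calls rest on single arrays. Without the E11.5 array 44 members fell, without E13.5 13, without E15.5 4, and without E17.5 or P0 0, and 4 fell when arrays were scaled to their median. The summed level of the nephron epithelium markers was 9.17, 41.0, 135, 245 and 399 over the same stages (8 of 9 rose), that of the nephron progenitor markers 232, 241, 187, 146 and 116 (6 of 10 fell), that of the erythroid markers 614, 474, 28.4, 10.8 and 5.24 (4 of 10 fell), and that of the neuron markers 10.1, 5.58, 3.68, 3.24 and 2.67 (5 of 7 fell). Of 9 ureteric markers 3 rose and 2 fell, and of 8 stroma markers 1 rose and 3 fell. Their part in the result was not tested. Other replication genes fell in 17 of 38 cases and other mitosis genes in 8 of 41, with 0 rising in either list. Among the brakes 6 of 16 tested rose and 3 fell, led by Cdkn1a (0.85 ± 0.06 per step) and Cdkn2c (0.69 ± 0.06), and among the entry genes 8 of 16 fell, led by Ccnd2 (-0.55 ± 0.07) and Cdk2 (-0.50 ± 0.09).

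The third comparison set uncultured organoids against fresh E11.5 kidney, the stage that supplied their stroma. The lone kidney array was assumed to vary like the organoid replicates, here and in all later tests. All 23 mitosis genes and 21 of 24 replication genes were lower in uncultured organoids and 0 were higher (limma; 0 higher also at an unadjusted p under 0.05), where 15.49% of 17262 genes tested were lower and 17.3% higher. The median difference was -1.33 for mitosis and -0.79 for replication genes, against 0.04 for all genes. Within the slide that held both groups, 21 mitosis and 9 replication genes were lower, with medians of -1.36 and -0.84.

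Top2a had 2.01, 1.98 and 1.81 in uncultured organoids, against 3.55 in E11.5 kidney, 3.07-fold lower (-1.62 ± 0.13, limma adjusted p = 0.000989). Mki67 had 3.79, 3.84 and 3.64 in uncultured organoids, against 5.18 in E11.5 kidney (-1.42 ± 0.13, limma adjusted p = 0.00127). Ccnb1 and Cdk1 differed by -1.21 ± 0.12 and -1.33 ± 0.14, and Foxm1 by -1.06 ± 0.15. All of these were lower on each of the 3 organoid arrays. The other Cdk1 probes differed by -0.27 and -2.15, so the size of its difference depends on the probe. The largest differences of the class were those of Aurkb (-2.84 ± 0.86, with 1 organoid array not well above background), Kif20a (-1.68), Bub1b (-1.63) and Top2a, and the smallest that of Ccnb2 (-0.64).

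Among the replication genes Pola1, the catalytic subunit of polymerase alpha, had 1.60, 1.52 and 1.18 in uncultured organoids, against 2.94 in E11.5 kidney (-1.51 ± 0.18, limma adjusted p = 0.00273). Mcm10 (-1.5 ± 0.18), Cdc6 (-1.24 ± 0.20) and Pole (-1.13 ± 0.14) came next. Pcna had 5.39, 5.14 and 5.37 in uncultured organoids, against 6.21 in E11.5 kidney (-0.90 ± 0.15), and Mcm2 had 3.61, 3.56 and 3.49, against 4.21 (-0.66 ± 0.13). Rfc3, E2f1 and Ccne2 were not called. Rfc3 had 1.37, 0.83 and 1.35 in uncultured organoids, against 1.22 in E11.5 kidney, a difference of -0.03 with a 95% interval from -0.64 to 0.57. E2f1 differed by -0.41 (95% interval -0.78 to -0.05, limma adjusted p = 0.0795).

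Among the other genes of these processes, 36 of 41 mitosis genes were lower and 0 higher in uncultured organoids, and 20 of 38 replication genes lower and 1 higher (Prim2, 2.58 ± 0.17). Prim2 had -2.26, -1.97, 1.29, -2.77 and -3.44 on the single kidney arrays from E11.5 to P0. Its difference therefore depends on the kidney array, whose spread the standard error does not measure. Entry genes were lower in 11 of 16 cases, led by Ccnd1 (-2.60 ± 0.21) and Mycn (-1.55 ± 0.10). Of 15 brakes tested 6 were higher and 1 lower, led by Btg2 (1.28 ± 0.15), Ccng1 (1.16) and Rbl2 (0.98). Markers of the lineages that make up the organoids differed too. The summed level of 9 ureteric markers was 33.2 to 38.8 in uncultured organoids, against 63.6 in E11.5 kidney (4 lower, 0 higher), and that of 10 nephron progenitor markers 169 to 185, against 232 (4 lower, 0 higher). That of 8 stroma markers was 236 to 248, against 153 (5 higher, 1 lower). Blood and vessel markers were also lower in uncultured organoids. The summed level of 10 erythroid markers was 17.3 to 25.5 in uncultured organoids, against 614 in E11.5 kidney (8 lower). That of 8 macrophage markers was 4.14 to 4.79, against 18.5 (7 lower; Cx3cr1, C1qa, C1qc and Mrc1 not well above background on any uncultured array), and that of 8 endothelial markers 12.1 to 13.4, against 19.7 (7 lower, 1 higher; Tek not well above background). Kdr, the 1 higher, made up most of the endothelial sum in uncultured organoids, and Csf1r most of the macrophage one. The median log2 differences were -4.21 for macrophage and -4.38 for endothelial markers. Skeletal muscle markers were higher in 4 of 5 tested (5.44 to 5.58, against 3.41) and neuron markers in 3 of 7, with 1 lower (22.0 to 24.8, against 10.1). Their part in the result was not tested.

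The next comparison was the same 7 days of culture in E11.5 kidney. All 47 genes were lower in the cultured kidney than in fresh E11.5 kidney, with medians of -1.03 for replication and -0.93 for mitosis genes (all genes -0.12). By 2-fold or more, 13 replication and 8 mitosis genes were lower and 0 higher, where 8.54% of genes were lower and 13% higher by that much. With 1 array against 1 there is no replicate check. Ccne1 had 3.0 in cultured and 4.68 in fresh E11.5 kidney, and Gins2 0.83 and 2.51. Ccne2 was at least 3.47-fold lower, since it was not well above background after culture. The members least below were E2f1 (-0.28), Mcm6 (-0.37) and Nusap1 (-0.45). Pcna differed by -0.83, Mcm2 by -1.06, Ccnb1 by -0.93, Cdk1 by -0.60, Top2a by -0.81, Mki67 by -0.56 and Foxm1 by -0.49. In the cultured kidney, Cdkn1a had a level of 3.05, against -0.96 in the fresh one, and Ccnd1 5.19, against 4.48. Cell type markers moved in the same pair of arrays. The summed level of the erythroid markers was 4.50 in cultured kidney, against 614 in fresh E11.5 kidney (8 of 10 lower by 2-fold or more), and that of the nephron epithelium markers 103, against 9.17 (9 of 9 higher by that much). That of the stroma markers was 276, against 153 (4 of 8 higher and 3 lower by 2-fold), that of the ureteric markers 118, against 63.6 (3 of 9 higher), and that of the nephron progenitor markers 209, against 232 (1 of 10 higher and 2 lower). The part of these markers in the result was not tested.

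The difference between the 2 culture changes was then tested itself. The change in organoids minus the change in kidney was above 0 for 22 of 23 mitosis and 9 of 24 replication genes and below 0 for none (limma, with 0 below also at an unadjusted p under 0.05), where 8.44% of 18023 genes tested were above and 6.84% below. The median was 1.38 for mitosis and 0.68 for replication genes, against -0.03 for all genes. By sign alone on the probe used, called or not, 22 mitosis genes were higher after culture in organoids and lower after it in kidney. In organoids 19 of these rises were called. For Cdk1, Mad2l1, Tpx2 and Birc5 the sign in organoids depends on the probe. Their other probes, above background on all 12 arrays, were lower after culture. Counted the same way, 19 replication genes were lower in both. They include Ccne2, which was dim, and Cdc6 and Pcna, with organoid changes of -0.01 and -0.07. The median of all genes tested was also below 0 in both, at -0.17 in organoids and -0.12 in kidney. The share of all genes with these signs is not given. The uncultured organoids started below E11.5 kidney, and those arrays enter this difference as well as the one above.

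Tpx2, a factor of spindle assembly, gave 1.73 ± 0.16 (limma adjusted p = 0.00409), followed by Kif11 and Kif23, motors of the spindle and of cytokinesis (1.69 ± 0.20 and 1.69 ± 0.19), and Cdc20 (1.68 ± 0.25). The other Tpx2 probe, above background on all 12 arrays, changed by -0.14 in organoids, where the probe used changed by 0.61. Its difference of changes is not given. Top2a gave 1.65 ± 0.18, Mki67 1.46 ± 0.18, Foxm1 1.38 ± 0.21, Ccnb1 1.36 ± 0.17 and Cdk1 1.14 ± 0.19, and the smallest of the class was Ccnb2 at 0.87. Aurkb was the 1 mitosis gene not called. Of the replication genes, Mcm10 (1.53 ± 0.26), Gins2 (1.36 ± 0.24), Rrm2, a subunit of ribonucleotide reductase (1.32 ± 0.18), and Pola1 (1.07 ± 0.26) led. Mcm2 (0.46), Pcna (0.76) and E2f1 (0.50) were not called, and Mcm6 had the smallest value at 0.06 (95% interval -0.35 to 0.48). With the slide as a block, 18 mitosis and 5 replication genes passed, and the share of all genes that did so is not given.

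Among other genes, the difference of changes was above 0 for 33 of 41 other mitosis and 11 of 38 other replication genes, led by Kif15 (2.26), Ncapg (2.11) and Tk1 (1.87). It was above 0 for 10 of 16 entry genes, led by Ccnd1 (2.22 ± 0.29) and Mybl2 (1.82 ± 0.23), and for 0 of 17 brakes, while 3 brakes were below 0, led by Cdkn1c (-1.40 ± 0.22). Erythroid (7 of 10), endothelial (6 of 8, with 1 below), ureteric (3 of 9), nephron progenitor (1 of 10) and nephron epithelium markers (1 of 9) were above 0 too, and stroma (3 of 8), neuron (3 of 7) and skeletal muscle markers (3 of 5, with 1 above) were below. Their part in the result was not tested.

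**Figure D5:**
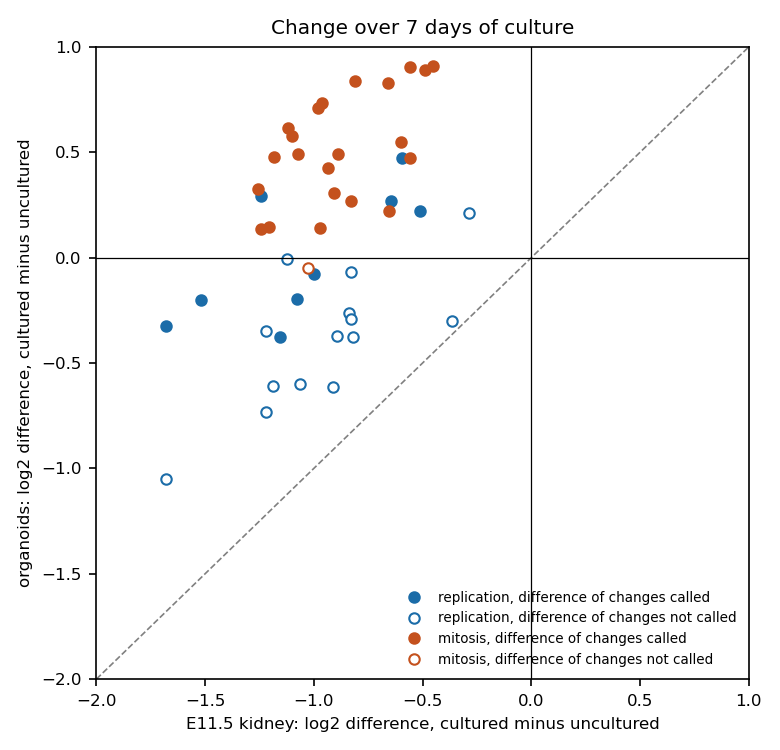
Log2 difference over 7 days of culture in organoids (vertical axis, means of 3 arrays) against that in E11.5 kidney (horizontal axis, 1 array each) for 46 genes, all but Ccne2, with filled points where the difference between the changes passed an adjusted p of 0.05. The dashed line marks equal change, and 22 mitosis genes lie above 0 in organoids and below 0 in kidney on the probe used.

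Cultured organoids were next set against cultured E11.5 kidney. Of 23 replication genes tested 1 was lower in cultured organoids than in cultured E11.5 kidney and 0 were higher, and of 23 mitosis genes 0 were lower and 0 higher, where 3.2% and 4.5% of 17151 genes tested were lower and higher (limma; at an unadjusted p under 0.05, 4 replication genes were lower and 1 higher, and 0 mitosis genes were lower and 2 higher). The 1 was Mcm3, with 4.41, 4.40 and 4.53 in cultured organoids, against 4.96 in cultured kidney (-0.52 ± 0.11, limma adjusted p = 0.0427), and it was not called with the slide as a block, without any 1 of the cultured organoid arrays, or without uncultured replicate 1. The medians were -0.12 for replication and 0.08 for mitosis genes (all genes 0.03), and the first turned to 0.07 when arrays were scaled to their median. The list of 41 other mitosis genes leaned higher in cultured organoids, with 32 above 0, 9 below and a median of 0.29. Of 38 other replication genes 19 were above 0 and 19 below, with a median of 0.01. Top2a differed by 0.03 (95% interval -0.28 to 0.34), Mki67 by 0.04 (-0.27 to 0.35), Ccnb1 by 0.15 (-0.14 to 0.43) and Cdk1 by -0.19 (-0.52 to 0.14). Pcna differed by -0.14 (-0.51 to 0.22), Mcm2 by -0.20 (-0.52 to 0.12), E2f1 by 0.08 (-0.28 to 0.44) and Foxm1 by 0.32 (-0.04 to 0.68). The smallest replication difference was that of Prim1, the small primase subunit, at 0.01, and Aurkb had the widest interval (-1.86, from -3.94 to 0.21). The summed level of the macrophage markers was 3.32 to 5.81 in cultured organoids, against 12.2 in cultured kidney (3 of 8 lower), and that of the stroma markers 444 to 512, against 276 (1 of 8 higher). Acta2, the brightest stroma marker in cultured organoids, differed most, and the median difference of the stroma markers was 0.04. Of 6 erythroid markers tested 3 were lower and 1 higher, and 0 of the ureteric, nephron progenitor, nephron epithelium and endothelial markers were called (limma). Their part in the result was not tested.

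Cultured organoids were also set against 3 fresh stages. Against E11.5 kidney, 23 of 24 replication and 21 of 23 mitosis genes were lower in cultured organoids and 0 higher. Of all genes tested, 27.9% were lower and 22.35% higher, and the medians were -1.06 and -0.78 (all genes -0.16). Against E15.5 kidney, 21 and 18 were lower and 0 higher, where 15.3% of genes were lower and 14.5% higher (medians -0.83 and -0.75, all genes -0.08). With the slide as a block these counts were 20 and 13 against E11.5, and 7 and 7 against E15.5. No share over all genes is given for slide-block or within-slide counts in comparisons with kidney. In both comparisons 0 members were higher also at an unadjusted p under 0.05. E2f1 and Foxm1 were not called in either.

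Cell type markers moved in these comparisons as well. The summed level of the nephron epithelium markers was 101 to 111 in cultured organoids, against 9.17 in E11.5 kidney (8 of 8 tested higher), 135 in E15.5 kidney (3 of 9 lower) and 399 in P0 kidney (7 of 9 lower). That of the erythroid markers was 3.30 to 3.51 in cultured organoids, against 614 (8 of 10 lower), 28.4 (8 of 10 lower) and 5.24 (5 of 7 tested lower) in E11.5, E15.5 and P0 kidney. That of the stroma markers was 444 to 512 in cultured organoids, against 153 (5 of 8 higher, 3 lower), 143 (5 higher, 1 lower) and 164 (7 higher) over the same stages. Nephron progenitor markers, which summed to 169 to 203 in cultured organoids, against 232, 187 and 116, were higher for 2, 1 and 7 of 10 genes and lower for 5, 1 and 0. Ureteric markers were higher for 4, 0 and 1 of 9 genes and lower for 1, 0 and 2. What part these markers have in the result was not tested.

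Against E11.5 kidney, Ccne1 (-1.72 ± 0.12), Fen1 (-1.47 ± 0.14) and Gins1 (-1.42 ± 0.20) were furthest below, with Ccne2 at least 3.66-fold lower, and among mitosis genes Aurkb (-2.89 ± 0.86), Kif20a (-1.35 ± 0.12), Bub1 (-1.30 ± 0.10) and Cenpe (-1.18 ± 0.10). Pcna differed by -0.97, Mcm2 by -1.26, Ccnb1 by -0.79, Cdk1 by -0.79, Top2a by -0.78 and Mki67 by -0.52. Against E15.5 kidney, Fen1 (-1.29 ± 0.14), Gins1 (-1.20 ± 0.21) and Mcm3 (-1.16 ± 0.11) were furthest below, with Ccne2 at least 2.90-fold lower, and among mitosis genes Bub1 (-1.11 ± 0.10), Kif20a (-1.08 ± 0.12), Cdk1 (-1.03 ± 0.14) and Birc5 (-1.0 ± 0.14). Pcna differed by -0.82, Mcm2 by -0.69, Top2a by -0.66, Mki67 by -0.53 and Ccnb1 by -0.48. Cenpf was the least apart, at -0.02.

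Against P0 kidney, 2 of 24 replication and 8 of 23 mitosis genes were higher in cultured organoids, where 24.3% of 17859 genes tested were higher, and 1 member was lower, where 18% were. The medians were 0.10 and 0.29, against 0.09 for all genes. Ttk, a checkpoint kinase, had -2.11, -2.0 and -1.94 in cultured organoids, against -3.04 in P0 kidney (1.03 ± 0.14, limma adjusted p = 0.00255). Top2a (0.63 ± 0.13), Cenpf (0.61 ± 0.16) and Tpx2 (0.55 ± 0.11) followed among mitosis genes, and Ccnb1 differed by 0.47 ± 0.12. E2f1 had 1.8, 1.75 and 1.74 in cultured organoids, against 1.02 in P0 kidney (0.74 ± 0.15, limma adjusted p = 0.0109), and Ccne1 differed by 0.71 ± 0.12. Ccne2 was the lower one, at least 1.27-fold, and its call was lost without any 1 of the cultured organoid arrays and with the slide as a block (limma adjusted p = 0.479). Mki67 (0.29), Foxm1 (0.27), Mcm2 (0.15), Pcna (0.06), Mcm6 (0.02), Cdk1 (0.01) and Birc5 (0.01) were not called. Without cultured organoid replicate 1, 6 members were higher, without replicate 3, 5, and with the slide as a block 4.

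Placed among the 5 fresh stages by their means, cultured organoids lay below every stage for 8 of 24 replication genes and 1 of 23 mitosis genes, where 20.1% of 19112 genes did so. Uncultured organoids lay below every stage for 5 replication and 18 mitosis genes, where 18% of all genes did. Cultured E11.5 kidney lay below every stage for 5 and 7, where 19.45% of all genes did. No member of the 3 sets was above its highest stage, where 19.25%, 28.97% and 19.49% of all genes were above it in cultured organoids, uncultured organoids and cultured kidney. The other members lay within the range of stages.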

How the data were processed

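RNA was hybridised to 12 one-colour Agilent arrays. Per the file headers, spot intensities were extracted with Agilent Feature Extraction 11.5.1.1 under the protocol GE1_1105_Oct12, and the submitters' processing notes name another version, 10.7.3.1. The deposited intensity of each spot was already background-subtracted, and the other deposited flags (well above background, saturated, outlier) were used as given. The authors' deposited log2 table, whose scaling is not stated, equals the log2 signal minus 1 constant per array and served as an alternative. Here the log2 signal minus each array's 75th percentile was used, without outlier spots, with spots averaged per probe and the probe of highest mean kept per gene. The number of arrays limits the precision.

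Genes that were well above background on all arrays of 1 or more of the groups compared (for the stage slope, on 1 or more arrays) were tested with limma 3.58.1 in R 4.3.3, with Benjamini-Hochberg adjustment over all genes tested and a threshold of 0.05, and ± gives the standard error. A single array in a group was assumed to vary like the replicated groups in the fit. Where 1 group was above background on every array and the other on none, the fold is a lower bound. It sets the mean of the bright group against the higher, per dim array, of the lowest signal above background and the gene's own signal. The steps were tested on simulated data. Named throughout are Mki67, Top2a, Pcna, Mcm2, Cdk1, Ccnb1, E2f1 and Foxm1, the called members of each class with the largest difference, the member with the smallest, and the leading called genes of other lists. The members and lists were chosen with earlier results of these data known. Of the member probes, 46 accessions were found in RefSeq, all with the same symbol. Promoter windows came from RefSeq (GRCm38.p6) and were searched with Python 3.11.15. Replicate numbers of the organoid groups were not taken as pairs in the main fit, since the labels do not state a pairing. Deviations of arrays with equal numbers correlated at -0.01, -0.14 and -0.01. These values cannot show that such arrays shared no batch of cells.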

Additional observations from a re-analysis of the deposited data

Results flagged for a closer look

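Of the 47 genes, 31 changed differently over 7 days of culture in organoids and in E11.5 kidney by a test of the difference itself (limma, adjusted p under 0.05, with 3 arrays in each organoid group and 1 in each kidney group), all with organoid change minus kidney change above 0, where 8.44% of 18023 genes tested were above 0. They were 22 mitosis and 9 replication genes, each on its brightest probe. Other probes of Cdk1, Mad2l1, Tpx2 and Birc5 were lower after culture in organoids. In log2 units, the genes of chromosomes and the spindle gave 1.73 for Tpx2, 1.69 for Kif11 and for Kif23, 1.65 for Top2a, 1.58 for Kif20a, 1.46 for Mki67, 1.38 for Cenpe, 1.36 for Nusap1 and 1.03 for Cenpf. Those of the checkpoint and anaphase gave 1.68 for Cdc20, 1.66 for Bub1b, 1.57 for Ttk, 1.35 for Bub1, 1.21 for Mad2l1 and 1.11 for Birc5. Those of mitotic entry gave 1.49 for Ccna2, 1.38 for Plk1 and for Foxm1, 1.36 for Ccnb1, 1.14 for Cdk1, 1.1 for Aurka and 0.87 for Ccnb2. Of the replication genes, Mcm10 gave 1.53, Gins2 1.36, Rrm2 1.32, Pola1 1.07, Rrm1 0.92, Pole 0.91, Mcm7 0.88, Fen1 0.78 and Cdt1 0.73. The cultured and fresh kidney arrays are single, so their own spread does not enter.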

How the results depend on the processing

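For the genes named, 1422 values kept direction and side of the threshold under the alternatives, 128 lost and 28 gained the call, and 1 reversed, Ccne2 in cultured organoids minus P0 kidney (0.14 with normexp background correction). In cultured minus uncultured organoids the median of the replication genes was -0.11 with normexp and -0.17 with quantile normalization, and normexp called 2 mitosis genes lower. Against a 1.5-fold threshold 2 genes rose and 1 fell, where 16.3% and 10.5% of all genes did. The replicate numbers as a block gave 18 higher and 10 lower (medians -0.29 and 0.49), where 26.65% and 36.98% of all genes were. Leaving out 1 array gave 15 to 20 higher and 8 to 13 lower, with no share over all genes given. The stage slope called 4 genes lower with scaling to the array median, where 5.1% of all genes were lower. It called 16 with no background filter, 39 with trend and robust moderation, and 0 to 44 without 1 array. No share over all genes is given for these. The medians without 1 array were -0.49 to -0.30 for replication and -0.52 to -0.22 for mitosis.

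In cultured organoids minus cultured E11.5 kidney, normexp called 2 higher and 4 lower, quantile normalization 1 and 3, trend and robust moderation 1 and 3, and median scaling 1 and 0. Lower were 0 with the mean of probes, with no filter and with the slide as a block, 2 with genes above background on every array, and 0 to 2 without 1 array. The replication median was 0.0692 with median scaling and 0.0131 with the mean of probes, and the mitosis median 0.27 with median scaling. Median scaling gave 1.48 for the mitosis median of the difference between culture changes, -0.95 and -0.67 for cultured organoids minus E11.5 kidney, and -0.72 and -0.64 minus E15.5 kidney, where the slide block left 14 lower. Minus P0 kidney, lower were 2 with normexp and 0 with quantile normalization, no filter, genes above background on every array or the slide block, which left 4 higher. Without 1 array 5 to 7 were higher and 0 lower.

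The median of all genes moved by over 0.1 to 0.22 with median scaling in the cultured comparison (main 0.03), to 0.14 with normexp for uncultured organoids minus E11.5 kidney (0.04), to -0.13 with normexp for the difference between changes (-0.03), to -0.04 and -0.03 with median scaling and normexp minus E11.5 kidney (-0.16), and to 0.06 and 0.02 with normexp and median scaling minus E15.5 kidney (-0.08). Of all calls, the share higher was 64.7% with median scaling for the slope (main 46.1%), 67.4% with normexp for uncultured organoids (52.8%), 79.4% with median scaling for the cultured pair (58.5%), 34.8% with normexp and 66.8% with median scaling for the difference between changes (55.2%), 55.4% and 61.7% with median scaling minus E11.5 and E15.5 kidney (44.5% and 48.7%), and 68.2% with normexp minus P0 kidney (57.5%). Dim signal limited Ccne2 and Aurkb.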
